A study of Mus musculus with 4 samples.

Results

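Total histone H3 was mapped by chromatin immunoprecipitation and sequencing in 3 mouse cell lines, with 1 library for each of 4 groups. The regions described are 7 megabases of the mm8 genome build, selected on their number of narrow sites with more H3 reads in 38B9 pro-B cells than in every other library. A site was a window of 1 kb with at least 20 distinct pro-B read positions (1 per position and strand) and at least 3 times the depth-scaled count of the highest other library. The 7 megabases hold 7000 windows of 1 kb, of which 6806 had a position in any library, out of 2243292 such windows on the autosomes. They are 7 of 2399 autosomal megabases whose libraries averaged 100 positions or more. The groups were 38B9 pro-B cells, an Abelson virus-transformed line grown in RPMI with 10% fetal calf serum, myotubes made from C2C12 myoblasts over 48 h in a medium of horse serum with insulin, transferrin and selenium, V6.5 embryonic stem (ES) cells of C57BL/6-129 background kept in 10 uM SB431542, an inhibitor of TGF-beta receptor kinases, for 24 h, and untreated V6.5 ES cells. Both ES groups had been grown on irradiated mouse embryonic fibroblasts and passaged off them before the experiment, and each cell type is represented by 1 line. H3 reads do not measure expression, so the cell types could not be checked against their markers. No group had a replicate, so no test between groups was possible, and the intervals (95%, exact binomial) cover counting error only.

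Histone H3 is a core subunit of the nucleosome, around which DNA is wrapped along the whole genome. In sonicated chromatin the number of H3 reads at a place depends on how many nucleosomes lie there, on how many DNA copies the cells carry, and on how readily the chromatin breaks and is recovered. Pro-B cells are the stage at which immunoglobulin heavy chain genes are rearranged, and their identity depends on transcription factors of early B cell development. In the mouse, chromosome 11 carries Ebf1 and Ikzf1 and chromosome 10 carries Myb, which encode such factors. This list is not complete and names only chromosomes that hold a megabase described here. No annotation of mm8 was used, so no gene was placed on the megabases, and whether any of these genes lies within them was not examined.

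The megabases are called here by chromosome. The distal chromosome 11 megabase ran from 44000001 to 45000000 and the proximal one from 11000001 to 12000000. The distal chromosome 4 megabase ran from 102000001 to 103000000 and the proximal one from 59000001 to 60000000. The others were chromosome 14 from 30000001 to 31000000, chromosome 13 from 32000001 to 33000000 and chromosome 10 from 19000001 to 20000000. The pro-B library held 13015879 distinct autosomal positions, the myotube library 12432118, the SB431542 library 13469179 and the untreated ES library 13132855, and each count was scaled to that total.

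The number of sites chose the megabases, so the pro-B excess is a description and not a finding. The distal chromosome 11 megabase had 36 sites, the distal chromosome 4 megabase 28, chromosome 14 23, chromosome 13 22, proximal chromosome 4 and chromosome 10 21 each, and proximal chromosome 11 20. Just below them, 8 autosomal megabases had 19 sites each, with pro-B to untreated ES ratios of 1.23 to 1.91. The 3 megabases from 114000001 to 117000000 on chromosome 12, with 31, 40 and 52 sites, held more than most of the 7 and are not described here. In all, the 7 megabases had 171 of 4223 autosomal sites, or 2.51% of their windows with a position, where the rule called 0.188% of all autosomal windows. The median autosomal megabase had 0 sites, and 1293 of the 2399 had none.

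Summed over the 7 megabases, there were 68046 positions in pro-B cells, 40493 in myotubes, 43506 in SB431542-treated ES cells and 43365 in untreated ES cells. These were 0.523% of the autosomal total in pro-B cells, 0.326% in myotubes, 0.323% in SB431542-treated ES cells and 0.330% in untreated ES cells. The pro-B share was thus 1.58 times (1.564 to 1.602) that of untreated ES cells, 1.62 times (1.599 to 1.638) that of SB431542-treated ES cells and 1.605 times (1.585 to 1.625) that of myotubes. The other 3 libraries lay close together, with myotubes at 0.986 times (0.9731 to 0.9999) and SB431542-treated ES cells at 0.978 times (0.9653 to 0.9913) the untreated ES share.

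In the distal chromosome 11 megabase there were 12572 positions in pro-B cells, 6138 in myotubes, 6163 in SB431542-treated ES cells and 6136 in untreated ES cells. Relative to untreated ES cells the pro-B share was 2.07 times (2.005 to 2.132), which ranked 3 of the 2399 megabases. The pro-B count was far above the other 3 counts, which lay close to each other. The chromosome 13 megabase had 9443 positions in pro-B cells, 6390 in myotubes, 5990 in SB431542-treated ES cells and 5870 in untreated ES cells. Its pro-B ratio to untreated ES cells was 1.62 times (1.571 to 1.677), and myotubes were also above untreated ES cells, at 1.15 times (1.11 to 1.192). With myotubes as the reference the pro-B ratio there was 1.41 times (1.367 to 1.457). The megabase before it was at 1.22 times in pro-B cells and 1.12 times in myotubes, relative to untreated ES cells, and that after it at 1.48 times in pro-B cells and 1.00 times in myotubes.

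The proximal chromosome 11 megabase had 8919 positions in pro-B cells, 5132 in myotubes, 6047 in SB431542-treated ES cells and 5824 in untreated ES cells, a pro-B ratio to untreated ES cells of 1.54 times (1.495 to 1.597). The proximal chromosome 4 megabase had 9877 positions in pro-B cells, 5925 in myotubes, 6330 in SB431542-treated ES cells and 6485 in untreated ES cells, a ratio of 1.54 times (1.489 to 1.586). On distal chromosome 4 there were 9081 positions in pro-B cells, 5532 in myotubes, 6078 in SB431542-treated ES cells and 6094 in untreated ES cells, a ratio of 1.504 times (1.455 to 1.553). These 3 megabases had nearly the same total excess, although it was laid out differently within each. The chromosome 10 megabase had 9085 positions in pro-B cells, 5489 in myotubes, 6485 in SB431542-treated ES cells and 6295 in untreated ES cells, a ratio of 1.46 times (1.41 to 1.504). The chromosome 14 megabase had the lowest ratio of the 7, 1.37 times (1.331 to 1.418), from 9069 positions in pro-B cells, 5887 in myotubes, 6413 in SB431542-treated ES cells and 6661 in untreated ES cells. By a rule of size of 0.5 on the log2 scale, 6 of the 7 were higher in pro-B cells, all but chromosome 14 at a log2 ratio of 0.46, where the rule called 3.79% of autosomal megabases. The rest of the same chromosomes lay between 0.961 and 1.06 times the untreated ES share in pro-B cells.

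**Figure D1:**
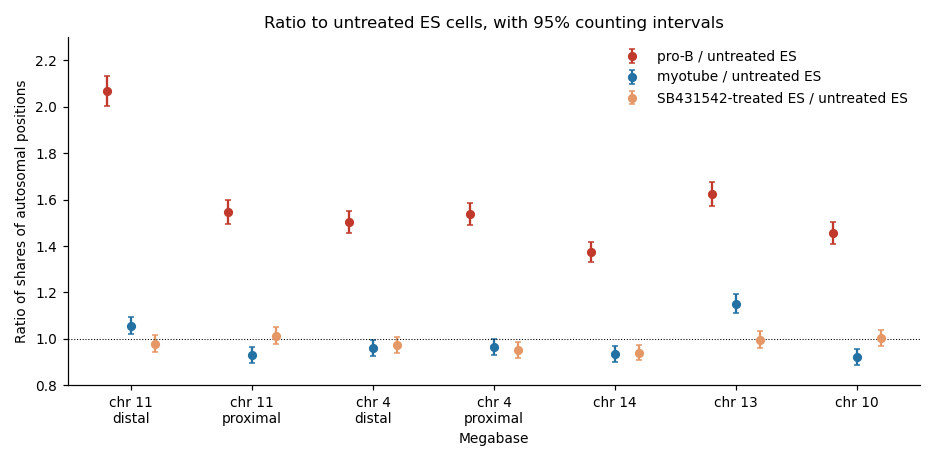
Ratio of shares of autosomal distinct H3 positions to untreated ES cells (vertical axis, no unit) in each megabase (horizontal axis) for the pro-B, myotube and SB431542 libraries, 1 library each; bars are 95% counting intervals. Pro-B ratios lie between 1.37 and 2.07 in the 7 megabases, while the other libraries lie between 0.921 and 1.15.

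The comparisons that did not rank the megabases gave smaller differences. Myotubes were above untreated ES cells in the chromosome 13 and distal chromosome 11 megabases, at 1.15 and 1.06 times (1.02 to 1.095). They were below in the other 5, from 0.921 times (0.8882 to 0.9552) on chromosome 10 to 0.965 times (0.9316 to 0.9999) on proximal chromosome 4. The SB431542 library lay between 0.939 times (0.9069 to 0.9716) on chromosome 14 and 1.01 times (0.9764 to 1.05) on proximal chromosome 11 relative to untreated ES cells. The values of all 7 megabases lay between the 5th and 95th percentiles of all autosomal megabases, which were 0.773 and 1.22 for myotubes and 0.921 and 1.09 for SB431542-treated cells. Since a separate run produced the SB431542 library, inhibitor and run cannot be told apart. No megabase reached the rule of size in either comparison, where it called 1.58% of megabases higher and 2.58% lower in myotubes and 0% either way with SB431542. None was lower in pro-B cells by that rule, where 4.54% of autosomal megabases were.

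Along each megabase the excess was not spread evenly. In bins of 100 kb, 36 of the 70 bins had at least 1.5 times the untreated ES share in pro-B cells, where 5.43% of all autosomal bins did, and none had as little as 1/1.5 times, where 4.82% did. No bin of the 70 reached 1.5 times in myotubes or SB431542-treated cells, where 1.21% and 0.00428% of all autosomal bins did, and none was as low as 1/1.5 times, where 2.04% and 0% were. In these bins of 100 kb, pro-B ratios to untreated ES cells ran from 0.829 to 3.02 with a median of 1.56. Myotube ratios ran from 0.778 to 1.29 and SB431542 ratios from 0.821 to 1.18. Of the 27 bins of 100 kb without a site, none reached 1.5 times in pro-B cells, and their ratios lay between 0.829 and 1.48. In 3 of the 70 bins of 100 kb the pro-B interval lay below 1, where 37.8% of all autosomal bins of that size did. In bins of 50 kb, 71 of 140 reached 1.5 times in pro-B cells, where 6.26% of all autosomal bins did, and 0 were at 1/1.5 times or less, where 6.07% were. In myotubes 0 of the 140 reached 1.5 times, with a background of 1.43%, and 1 was at 1/1.5 times or less, with a background of 2.43%. In SB431542-treated cells 0 passed either way, with backgrounds of 0.0193% each. Bins of 50 kb ran from 0.769 to 3.06 times untreated ES in pro-B cells, from 0.666 to 1.42 times in myotubes and from 0.763 to 1.27 times in SB431542-treated cells. At this size 13 of the 77 bins without a site reached 1.5 times in pro-B cells, and the 77 lay between 0.769 and 2.22 times. The share over all autosomal bins without a site was not counted at 50 kb or at 100 kb. Of the 13, 4 were on distal and 3 on proximal chromosome 11, 2 each on proximal chromosome 4 and chromosome 13, and 1 each on chromosomes 14 and 10.

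**Figure D2:**
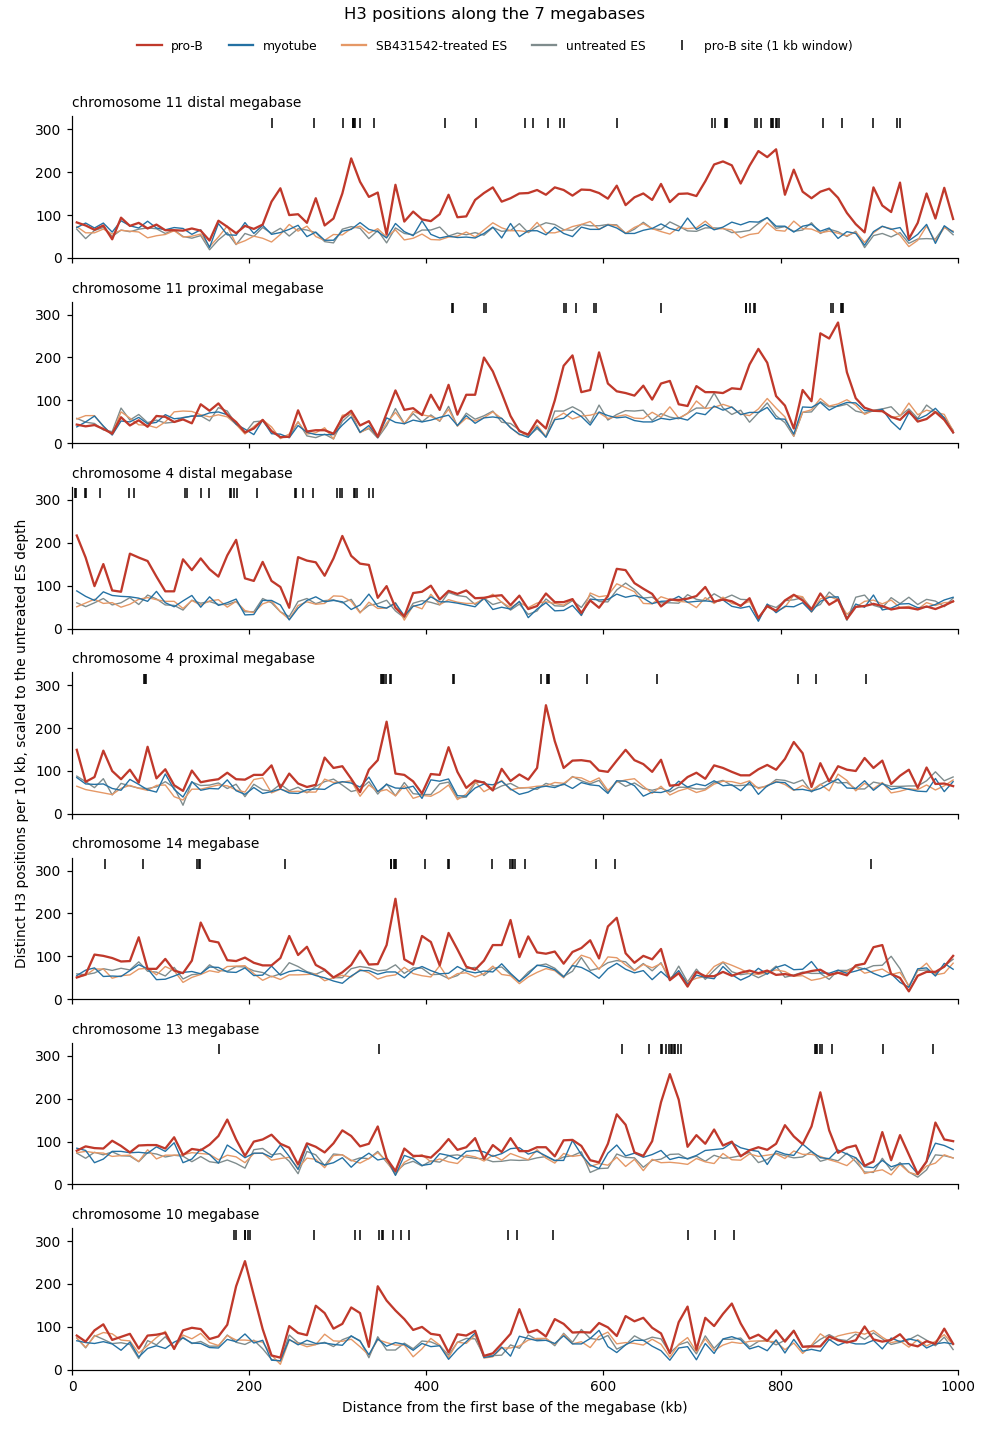
Distinct H3 positions per 10 kb, scaled to the untreated ES depth (vertical axes), against the distance in kb from the first base of each megabase (horizontal axis) for the 4 libraries, with a tick at each pro-B site. The pro-B line stands above the other 3 over most of the distal chromosome 11 megabase and over the first 350 kb of the distal chromosome 4 megabase. It has several peaks in the chromosome 10, 13 and 14 megabases, on chromosome 13 with 98 of 100 bins above untreated ES.

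The distal chromosome 11 megabase had the broadest excess by the bins that reached 1.5 times untreated ES. Its first bin of 100 kb was at 1.18 times the untreated ES share and the second at 1.37 times, and the other 8 lay between 1.83 and 3.02 times. The highest, from 44700001 to 44800000, held 2089 positions in pro-B cells, 737 in myotubes, 679 in SB431542-treated ES cells and 698 in untreated ES cells, and 14 of the 36 sites lay in it. Of its 20 bins of 50 kb, 17 reached 1.5 times, without a break from 44150001 to 45000000. This stretch held 97.5% of the excess of the megabase and went on past its end to 45400000, a length of 1250 kb in all. Within the megabase the stretch had 11517 positions in pro-B cells, 5120 in myotubes, 5269 in SB431542-treated ES cells and 5238 in untreated ES cells. In its first 2 bins of 100 kb, where pro-B cells were at 1.18 and 1.37 times untreated ES, myotubes were at 1.19 and 1.29 times.

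On distal chromosome 4 the excess had a sharp end. The first 4 bins of 100 kb were at 2.26, 2.51, 2.31 and 2.06 times untreated ES in pro-B cells and held all 28 sites. The next bin was at 1.21 times, and the last, from 102900001, at 0.829 times (0.7351 to 0.9335). The stretch from 102000001 to 102350000 had 4815 positions in pro-B cells, 2081 in myotubes, 2052 in SB431542-treated ES cells and 2022 in untreated ES cells. It made up 35% of the length of the megabase and 92.4% of its excess, and with the bin of 50 kb before the megabase it spanned 400 kb. Outside the stretch the same megabase had 4266 positions in pro-B cells, 3451 in myotubes, 4026 in SB431542-treated ES cells and 4072 in untreated ES cells, a pro-B ratio of 1.06 times (1.012 to 1.104). The megabases on its sides lay at 0.974 and 0.788 times and had 0 sites.

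The proximal chromosome 11 megabase held its excess in the middle. Its first bin of 100 kb was at 0.849 times untreated ES and its last at 0.863 times, and the 5 bins from 11400001 to 11900000 lay between 1.80 and 2.08 times and held all 20 sites. From the first site at 11428001 to the end of the last at 11871000, a span of 443 kb, there were 5705 positions in pro-B cells, 2493 in myotubes, 2948 in SB431542-treated ES cells and 2884 in untreated ES cells. The pro-B ratio in that span was 2.00 times (1.908 to 2.088), and in the rest of the megabase 1.10 times (1.049 to 1.16). The span held 90.5% of the excess. The megabase before was at 0.857 times and the one after at 0.714 times untreated ES, both with 0 sites.

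In the other 4 megabases, bins of 50 kb at 1.5 times untreated ES or more formed separate stretches. There were 2 on chromosome 14, 3 on chromosome 10, 4 on proximal chromosome 4 and 5 on chromosome 13. Proximal chromosome 11 also had 4. On proximal chromosome 4 all 10 bins of 100 kb were above untreated ES, from 1.17 to 1.84 times, and the 4 bins without a site were together at 1.35 times (1.279 to 1.416). The chromosome 13 megabase likewise had all 10 bins above untreated ES, from 1.28 to 2.33 times. How many of all autosomal bins of 100 kb were above untreated ES in pro-B cells was not counted. The chromosome 13 megabase had its highest bin from 32600001 to 32700000. This bin held 1362 positions in pro-B cells, 661 in myotubes, 511 in SB431542-treated ES cells and 589 in untreated ES cells, and 12 of the 22 sites. The 5 bins of 100 kb without a site on chromosome 13 were together at 1.40 times (1.336 to 1.466) in pro-B cells. In myotubes 7 of the 10 bins of chromosome 13 had intervals above 1, where 22% of all autosomal bins of 100 kb did, with ratios to untreated ES of 0.996 to 1.28 over the 10.

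On chromosome 14 the first 7 bins of 100 kb lay between 1.30 and 1.85 times untreated ES and the last 3 between 0.943 and 1.04 times, the last of which held 1 lone site. Its longest stretch, from 30350001 to 30650000, had 3568 positions in pro-B cells, 1866 in myotubes, 2054 in SB431542-treated ES cells and 2077 in untreated ES cells and held 16 of the 23 sites. On chromosome 10 the first bin was at 1.28 times, the 3 from 19100001 to 19400000 at 1.74, 1.80 and 2.10 times, the next 4 between 1.29 and 1.58 times and the last 2 at 0.974 and 1.01 times. Its longest stretch, from 19150001 to 19400000, had 2895 positions in pro-B cells, 1392 in myotubes, 1500 in SB431542-treated ES cells and 1447 in untreated ES cells and held 15 of the 21 sites. In bins of 100 kb neither megabase had a site-free bin at 1.5 times, and in bins of 50 kb each had 1.

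Cumulated from its first base, the excess over untreated ES reached 50% after 650 kb in the distal and 650 kb in the proximal chromosome 11 megabase. On chromosome 4 it did so after 190 kb in the distal and 540 kb in the proximal megabase. The same point lay at 400 kb on chromosome 14, 630 kb on chromosome 13 and 360 kb on chromosome 10. The middle 80% of the excess, between 10% and 90%, ran from 30 to 340 kb on distal chromosome 4, from 430 to 860 kb on proximal chromosome 11 and from 90 to 850 kb on proximal chromosome 4. Distal chromosome 4 thus had the narrowest and proximal chromosome 4 the widest layout of these 3.

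Most of the excess lay outside the sites themselves. The 171 sites took 2.51% of the windows with reads and 14.7% of the excess, and windows within 5 kb of a site took 14.1% of windows and 29.6% of the excess. The remaining 55.7% came from windows farther away, which were 83.4% of the windows. Those farther windows held 49758 positions in pro-B cells, 33531 in myotubes, 36431 in SB431542-treated ES cells and 36120 in untreated ES cells, a pro-B ratio of 1.39 times (1.371 to 1.409). The ratio of the farther windows was highest on distal chromosome 11, at 1.85 times (1.782 to 1.918), and lowest on distal chromosome 4, at 1.21 times (1.168 to 1.26). Distal chromosome 4 was the megabase with the most of its excess near sites, 19.5% in sites and 45.8% within 5 kb. Proximal chromosome 4 and chromosome 13 had the least, with 67.7% and 67.0% farther away. Windows that just missed the rule count among the flanks and the farther windows. With windows near sites by a looser rule of 2 times also left out, the ratio of the farther windows was 1.30 (1.285 to 1.323).

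**Figure D3:**
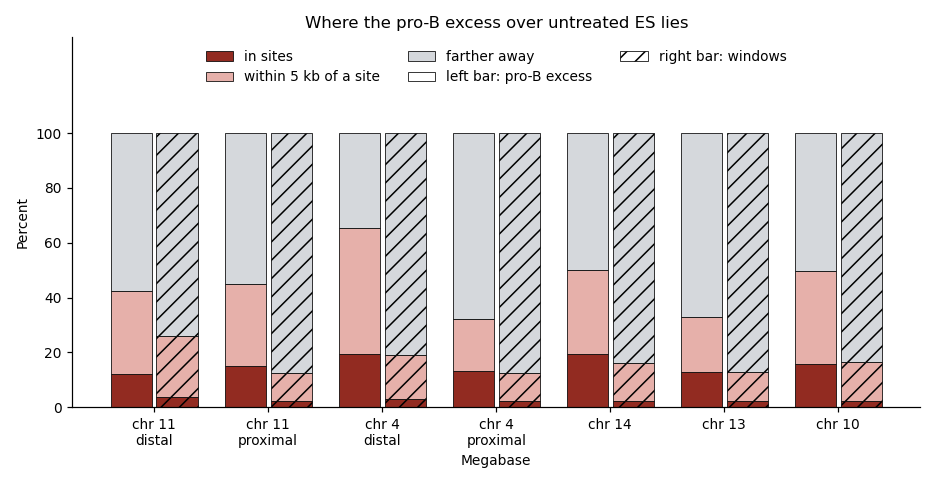
Percent (vertical axis) of the pro-B excess over untreated ES (left bar) and of 1 kb windows with reads (right, hatched bar) in sites, within 5 kb of a site and farther away, for each megabase (horizontal axis). Sites hold 12.1% to 19.5% of the excess in 2.11% to 3.66% of the windows.

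The excess was also ranked in bins of 10 kb on the reads of one strand and summed on the reads of the other strand, so that the same reads did not both rank and measure a bin. The sites that chose the megabases were called on both strands together. The split does not remove that choice, so the shares below are a description. Summed over both directions, the top 10% of the 700 bins held 31.9% of the excess (30.88 to 32.96), where an equal excess in every bin would give 10%. Coverage differs between bins, so a constant ratio would give another value, which was not computed. It was most concentrated on proximal chromosome 11, at 41.1% (37.66 to 44.47), and least on distal chromosome 11, at 22.2% (20.71 to 23.73). Chromosomes 14, 10 and 13 gave 38.2%, 34.9% and 28.0%, and the distal and proximal chromosome 4 megabases 37.5% and 25.1%. In all, 599 of the 700 bins had more scaled pro-B than untreated ES positions, where 43% of all autosomal bins of 10 kb did, with 97 of 100 on distal chromosome 11 and 98 of 100 on chromosome 13.

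Single bins of 10 kb with the largest excess held 2 to 5 sites each. On chromosome 10 the bin from 19190001 to 19200000 held 251 positions in pro-B cells, 79 in myotubes, 71 in SB431542-treated ES cells and 59 in untreated ES cells, a pro-B ratio to untreated ES of 4.29 times (3.221 to 5.801). On chromosome 13 the bin from 32670001 to 32680000 held 255 positions in pro-B cells, 55 in myotubes, 53 in SB431542-treated ES cells and 70 in untreated ES cells. On distal chromosome 11 it was 44790001 to 44800000, with 251 positions in pro-B cells, 70 in myotubes, 66 in SB431542-treated ES cells and 69 in untreated ES cells. These bins, and those of the other 4 megabases below, were picked for their pro-B excess over untreated ES. A pro-B count above untreated ES is thus set by the choice, and the counts only describe the bins. The bin of proximal chromosome 11 was 11860001 to 11870000, with 279 positions in pro-B cells, 83 in myotubes, 94 in SB431542-treated ES cells and 86 in untreated ES cells. That of distal chromosome 4 was 102000001 to 102010000, at the very start of the megabase, with 215 positions in pro-B cells, 83 in myotubes, 52 in SB431542-treated ES cells and 60 in untreated ES cells. On proximal chromosome 4 the bin from 59530001 to 59540000 held 251 positions in pro-B cells, 61 in myotubes, 67 in SB431542-treated ES cells and 71 in untreated ES cells, and on chromosome 14 the bin from 30360001 to 30370000 held 232 positions in pro-B cells, 60 in myotubes, 58 in SB431542-treated ES cells and 80 in untreated ES cells. Each of these bins gave between 2.81% and 6.77% of the excess of its megabase.

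Within a site the pro-B count was modest in number, so that single sites carry wide counting intervals. The 171 sites had from 20 to 53 pro-B positions with a median of 27. In the same windows the medians were 6 in myotubes, 6 in SB431542-treated and 6 in untreated ES cells. The highest counts there were 11, 13 and 13 in the myotube, SB431542 and untreated ES libraries. These are the values that chose the sites. The site with the most pro-B positions was on proximal chromosome 11 from 11868001 to 11869000, with 53 positions in pro-B cells, 7 in myotubes, 6 in SB431542-treated ES cells and 13 in untreated ES cells. On distal chromosome 11 the highest was 44738001 to 44739000, with 48 positions in pro-B cells, 7 in myotubes, 8 in SB431542-treated ES cells and 12 in untreated ES cells. The highest site of chromosome 14 was 30143001 to 30144000, with 45 positions in pro-B cells, 8 in myotubes, 7 in SB431542-treated ES cells and 5 in untreated ES cells. At these 3 sites the other libraries stayed low, which the site rule required. The second highest sites were 44316001 to 44317000 with 43 positions in pro-B cells, 9 in myotubes, 13 in SB431542-treated ES cells and 13 in untreated ES cells on distal chromosome 11 and 11569001 to 11570000 with 39 positions in pro-B cells, 11 in myotubes, 9 in SB431542-treated ES cells and 9 in untreated ES cells on proximal chromosome 11.

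On chromosome 14 the second highest site, from 30363001 to 30364000, had 43 positions in pro-B cells, 6 in myotubes, 8 in SB431542-treated ES cells and 9 in untreated ES cells. On distal chromosome 4 the highest site was 102299001 to 102300000, with 43 positions in pro-B cells, 5 in myotubes, 9 in SB431542-treated ES cells and 12 in untreated ES cells, and the second highest, from 102321001 to 102322000, had 36 positions in pro-B cells, 3 in myotubes, 7 in SB431542-treated ES cells and 3 in untreated ES cells. The pro-B ratio of that second site to untreated ES was 12.1 times, with an interval of 3.826 to 61.45 that shows how little 1 window fixes the size. The other 3 megabases had the same kind of window, high in pro-B cells and low in the other 3 libraries as the rule required. On chromosome 13 the highest site was 32670001 to 32671000, with 42 positions in pro-B cells, 4 in myotubes, 9 in SB431542-treated ES cells and 8 in untreated ES cells, and the second, from 32840001 to 32841000, had 40 positions in pro-B cells, 7 in myotubes, 10 in SB431542-treated ES cells and 9 in untreated ES cells. On proximal chromosome 4 it was 59537001 to 59538000, with 42 positions in pro-B cells, 7 in myotubes, 8 in SB431542-treated ES cells and 9 in untreated ES cells, next to the second highest from 59536001, with 35 positions in pro-B cells, 8 in myotubes, 10 in SB431542-treated ES cells and 8 in untreated ES cells. On chromosome 10 it was 19346001 to 19347000, with 39 positions in pro-B cells, 3 in myotubes, 7 in SB431542-treated ES cells and 8 in untreated ES cells, and the second, from 19194001 to 19195000, had 38 positions in pro-B cells, 10 in myotubes, 8 in SB431542-treated ES cells and 6 in untreated ES cells. Near the limits of the rule, 23 of the sites had 20 or 21 pro-B positions, while 21 windows that passed the fold had 18 or 19. Of the sites, 72 had a fold of 3 to under 3.5, and 110 further windows passed the count with a fold of 2.5 to under 3, so the rule cuts through a continuous range.

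**Figure D4:**
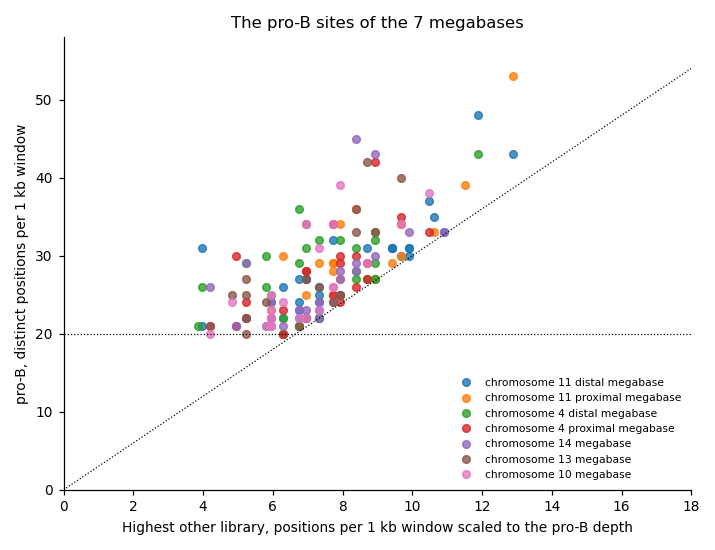
Distinct pro-B positions per 1 kb window (vertical axis) against the highest other library scaled to the pro-B depth (horizontal axis) for the 171 sites, coloured by megabase; dotted lines mark the count minimum of 20 and the fold of 3 that chose them. Sites of all 7 megabases mix over the range of 20 to 53 pro-B positions.

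Some sites were neighbours. Sites at most 2 kb apart were joined to runs, which gave 26 runs for the 36 sites of distal chromosome 11 and 13 for the 20 of proximal chromosome 11. The longest run lay on chromosome 13 from 32674001 to 32681000, 7 kb with 5 sites. It held 188 positions in pro-B cells, 41 in myotubes, 37 in SB431542-treated ES cells and 45 in untreated ES cells. A run of 4 sites without a gap lay on proximal chromosome 4 from 59348001 to 59352000, with 115 positions in pro-B cells, 19 in myotubes, 26 in SB431542-treated ES cells and 20 in untreated ES cells. On distal chromosome 4 the run from 102318001 to 102322000 held 130 positions in pro-B cells, 24 in myotubes, 24 in SB431542-treated ES cells and 20 in untreated ES cells. Each site had to hold at least 3 times the highest other library, so the wide margin of the pro-B sums in these runs largely follows from the rule. The longest run of distal chromosome 11, from 44794001 to 44799000, had 132 positions in pro-B cells, 32 in myotubes, 42 in SB431542-treated ES cells and 33 in untreated ES cells. On chromosome 14 it ran from 30494001 to 30498000, with 86 positions in pro-B cells, 25 in myotubes, 20 in SB431542-treated ES cells and 27 in untreated ES cells. Those of proximal chromosome 11, from 11555001 to 11558000, and chromosome 10, from 19182001 to 19185000, spanned 3 kb with 2 sites each. Median steps between neighbouring sites ran from 3.5 kb on proximal chromosome 4 to 15.5 kb on chromosome 14. The widest gaps without a site were 289 kb on chromosome 14, 273 kb on chromosome 13 and 264 kb on proximal chromosome 4, and the narrowest such maximum was 57 kb on distal chromosome 4, counted between its first and last site.

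Several features of the sites had no part in the rule. Both strands were present, with 49.6% of pro-B positions in the sites on the plus strand and at least 5 positions on each strand in 169 of the 171 sites. In the autosomal sites outside the 7 megabases and the 3 of chromosome 12 it was so in 3877 of 3929. With at least 20 positions in every site, such counts on both strands are likely anywhere. Repeated reads were 5.41% of pro-B reads in the sites, 3.67% of myotube, 5.44% of SB431542 and 2.77% of untreated ES reads. Over the whole libraries repeats were 2.80% in pro-B cells, 3.43% in myotubes, 5.53% in SB431542-treated and 2.83% in untreated ES cells. In the sites the pro-B share of repeats was thus above that of its whole library, and in the 3929 autosomal sites outside the 7 megabases and the 3 of chromosome 12 it was 4.76%. Repeats did not enter the site counts, and with all reads as deposited there were 196 sites.

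Windows with at least 20 positions were also counted. That minimum is part of the site rule that chose the megabases, and every site also passes the rule against any single library. The pro-B counts below thus include the sites and are a description. Of the 6806 windows with reads, 535 held at least 20 positions in pro-B cells, 3 in myotubes, 4 in SB431542-treated and 5 in untreated ES cells. That was 7.86% of windows in pro-B cells, against 0.862% of all other autosomal windows. In myotubes it was 0.0441% here and 0.0854% elsewhere, in SB431542-treated ES cells 0.0588% and 0.115%, and in untreated ES cells 0.0735% and 0.0580%. The median window held 9 positions in pro-B cells, from 8 to 12 over the 7 megabases, and 6, 6 and 6 in the myotube, SB431542 and untreated ES libraries. Compared with untreated ES alone, 326 windows were higher in pro-B cells by the same count and fold, where the background was 0.447% of windows, and 0 were lower, with a background of 0.0115%. Against myotubes alone, 333 windows were higher in pro-B cells and 0 were lower, with backgrounds of 0.474% and 0.0319%. Against untreated ES, 1 window was higher and 1 lower in myotubes, with backgrounds of 0.0234% and 0.0141%, and 1 higher and 1 lower in SB431542-treated cells, with backgrounds of 0.0138% and 0.00517%. By the rule against every other library, 0 windows were higher in myotubes, SB431542-treated or untreated ES cells, where it called 0.00535%, 0.00174% and 0.00116% of windows. At such low backgrounds a count of 0 among 6806 windows says little.

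Pro-B positions became fewer with distance from a site, while the other libraries were nearly flat. The site rule asks for a high pro-B count and low other counts in the sites, so part of this contrast follows from the rule. At a common depth the 7 megabases held 28.0 pro-B positions per window in sites, 16.5 at 1 to 2 windows, 12.3 at 3 to 5, 11.1 at 6 to 10, 10.5 at 11 to 20, 9.40 at 21 to 50 and 7.33 beyond 50 windows of 1 kb. Untreated ES cells had 6.17 positions per window in sites and 6.30 beyond 50 windows. Myotubes had 5.84 and 6.11 at those distances, and SB431542-treated cells 5.84 and 6.25.

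The same profile was taken around the 3929 other autosomal sites outside these megabases and outside the 3 megabases of chromosome 12. In the sites themselves the pro-B ratio to untreated ES was alike, 4.53 times (4.239 to 4.85) in the 7 megabases and 4.60 times (4.537 to 4.67) elsewhere. Both values hold the choice of the windows. Away from sites the 7 megabases were higher at every distance. At 3 to 5 windows the ratio was 1.90 times (1.821 to 1.983) in the 7 megabases and 1.62 times (1.605 to 1.631) elsewhere, at 11 to 20 windows 1.64 times (1.584 to 1.688) and 1.34 times (1.336 to 1.35), and beyond 50 windows 1.16 times (1.139 to 1.188) and 0.949 times (0.9482 to 0.9498). A window in the 7 megabases often has several sites around it, and megabases picked for many sites hold many windows that just miss the rule, so these differences are a description. In both sets the myotube and SB431542 ratios to untreated ES lay between 0.934 and 1.05 at every distance.

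**Figure D5:**
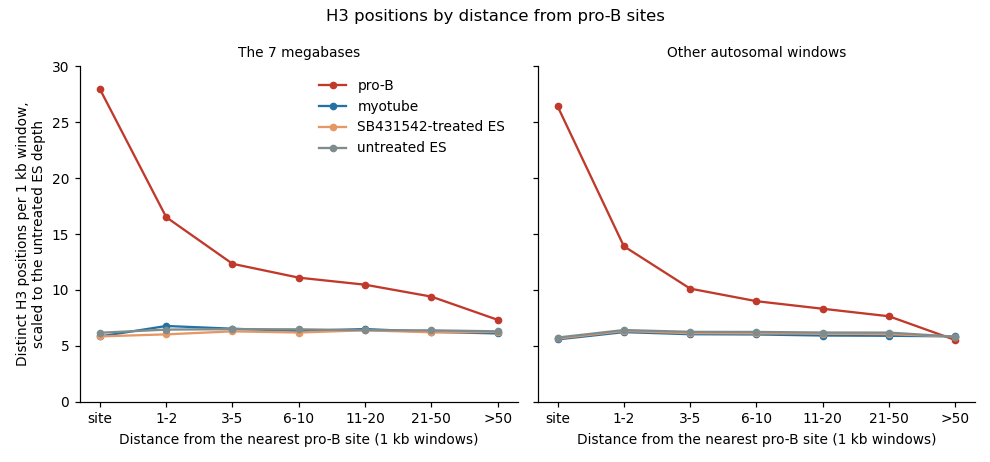
Distinct H3 positions per 1 kb window, scaled to the untreated ES depth (vertical axes), by distance in windows from the nearest pro-B site (horizontal axes) for the 4 libraries, in the 7 megabases (left) and in other autosomal windows (right). The pro-B line starts at 28.0 in the 7 megabases and at 26.4 elsewhere, and beyond 50 windows it lies at 7.33 and 5.52, while the other libraries stay near 6 positions per window.

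The megabases at the sides were also described. They were not picked for their sites, so a lower pro-B ratio there partly follows from the choice. Stretches of bins at 1.5 times untreated ES also crossed the borders of the distal chromosome 11, distal chromosome 4 and chromosome 13 megabases. Of the 14 neighbouring megabases, those after distal chromosome 11, chromosome 13 and chromosome 10 were at 1.40, 1.48 and 1.32 times untreated ES in pro-B cells, with 11, 4 and 10 sites. Those before chromosome 14 and chromosome 13 were at 1.22 and 1.22 times, with 6 and 3 sites. The other 9 lay between 0.714 and 1.05 times and had 0 or 1 site. No input library was used here, so that DNA copies of a segment and H3 recovered per copy cannot be told apart.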

How the data were processed

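Total H3 was measured by ChIP-seq in 4 libraries, 1 per group. Per the labels' protocols, extracts were sonicated to 500 bp on average, amplified by 18 cycles of ligation-mediated PCR and cut from a gel at 150 to 300 bp. Per the file headers, the authors aligned reads to mm8 with Bowtie, whose version the sources used here do not give (seed of 36 bases, at most 2 seed mismatches, quality limit of 70, at most 2 places). The deposited files hold 1 signed position per read, not scaled in any way, in 2 sections, taken from their names and the options to hold reads with 1 and with 2 places. Per the file headers, the SB431542 library came from run 100804 and the others from run 100623.

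Here 1 read per position and strand was kept from the 1-place section, counted in windows of 1 kb and scaled to the autosomal total. Which end of a minus-strand read the position marks is not stated. Ratios have exact conditional binomial intervals (scipy 1.17.1, numpy 2.4.6), which cover counting error and not PCR, as the reads carried no molecular identifiers. Shares of all autosomal bins are over bins of 50 kb averaging at least 50 positions and bins of 100 kb averaging at least 100. Excess is pro-B minus scaled untreated ES positions. Named in each megabase were the 2 sites with the most pro-B positions, the longest run of sites, the extreme bins of 100 kb and the bin of 10 kb with the largest excess. The site rule, the ratio and the concentration measure were tested on simulated counts, the last with equal coverage of all bins. The simulated counts varied by counting error only, so they checked the calculations and not how real libraries vary. The members and lists were chosen with earlier results of these data known. Genes and sequences were not analysed here, since the tables at hand are of GRCm38.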

Additional observations from a re-analysis of the deposited data

Results flagged for a closer look

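The values above leave out reads with 2 reported places. In 3 of the 7 megabases the scaled count of such reads was larger in pro-B cells than in untreated ES cells, by more than counting error. Counts were scaled to the autosomal totals of the 1-place section, as above. How many of all autosomal megabases would pass in the same way was not counted. The 3 of 7 is therefore not a result about these megabases. On chromosome 13 there were 424 positions in pro-B cells, 302 in myotubes, 278 in SB431542-treated ES cells and 260 in untreated ES cells, a pro-B ratio to untreated ES of 1.65 times (1.407 to 1.928). On distal chromosome 11 there were 170 positions in pro-B cells, 117 in myotubes, 133 in SB431542-treated ES cells and 110 in untreated ES cells, a ratio of 1.56 times (1.22 to 2). On proximal chromosome 4 there were 245 positions in pro-B cells, 188 in myotubes, 191 in SB431542-treated ES cells and 178 in untreated ES cells, a ratio of 1.39 times (1.14 to 1.694). In the other 4 megabases the interval of the pro-B ratio held 1. Myotubes also had a larger scaled count of such reads than untreated ES cells in 2 megabases, again without a share over all autosomal megabases. On chromosome 13 their ratio was 1.23 times (1.036 to 1.454). On chromosome 10 there were 141 positions in pro-B cells, 185 in myotubes, 146 in SB431542-treated ES cells and 149 in untreated ES cells, where the ratio to untreated ES was 0.955 times (0.753 to 1.21) in pro-B cells and 1.31 times (1.051 to 1.639) in myotubes. A read with 2 places may come from either, so these positions do not show that the reads arose in the megabase.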

How the results depend on the processing

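Each pro-B ratio of a single megabase stayed above 1 in 42 recomputed values, from 1.30 to 2.15, of which 22 lay within the counting interval of the reported value and 20 outside it. The pooled pro-B to untreated ES ratio of 1.58 was 1.64 with libraries scaled to the median megabase, 1.62 with SB431542-treated ES and 1.605 with myotubes as the reference. The 171 sites became 405 at 2 times the highest other library, 57 with at least 30 pro-B positions, and 72 in windows of 2 kb with at least 40. The share of the excess in the top 10% of bins was 30.7% with the median scaling, 34.2% in bins of 5 kb and 30.6% in bins of 20 kb, against 31.9%. The ratio in windows away from sites, 1.39 at 5 kb, was 1.43 with the median scaling, 1.43 at 2 kb, 1.28 at 20 kb and 1.30 with sites by the 2 times rule left out. Looser limits and closer distances let in more windows by construction, and stricter limits fewer. The median scaling multiplies each pro-B ratio of a megabase to untreated ES by 1.038. The cause of the other shifts was not tested. The other recomputed values, among them those of the myotube and SB431542 ratios, stayed within counting error, or within 1.5 times for counts. No paired analysis was possible because each group has 1 library, and none could be left out. Depth limits single windows most, since 20 positions against 6 give wide intervals.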
